A study of Mus musculus with 4 samples.

Results

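Inflammatory chemokines were followed in mouse bone through 10 genes: Cxcl1, Cxcl2, Cxcl3, Cxcl10, Ccl2, Ccl3, Ccl4, Ccl5, Ccl6 and Ccl9. They were taken by gene symbol and were 10 of the 31053 genes in the count matrices. All 10 were detected. Chemokines are small secreted proteins that bind G-protein-coupled receptors on leukocytes and draw these cells along a gradient. CXC ligands such as Cxcl1, Cxcl2 and Cxcl3 bind Cxcr2 and recruit neutrophils, whereas CC ligands such as Ccl2, Ccl3, Ccl4 and Ccl5 act through CC receptors on monocytes, lymphocytes and osteoclast precursors. Most are switched on within hours of an inflammatory stimulus through NF-kB, and several are also known to be induced when tissue is digested into single cells.

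The data were single-cell transcriptomes from wild-type mice, C57BL/6J by the study's methods. There were 2 control mice (Ctrl) and 2 mice unloaded by suspension by the tail for 28 days (hindlimb unloading, HLU), with 1 library per mouse. The marrow of tibiae and femurs was flushed out with cold buffer, and the remaining bone was digested with enzymes, so the blood cells analysed were those left after flushing. The series description and the study's methods give different ages, postnatal day 28 in the former and older mice in the latter. The study asked how the cell types of bone respond to the loss of mechanical load.

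In all, 32217 barcodes passed the filter of 1000 to 40000 unique molecular identifiers (UMIs) and at most 10% mitochondrial UMIs, with 7340, 7635, 7757 and 9485 in single libraries. Values of the 4 libraries are given in this order throughout, the Ctrl mice before the HLU mice and replicate 1 before replicate 2. The passing barcodes held 45347595 to 87604282 UMIs per library, most in HLU replicate 2. Any 2 libraries shared 13 to 21 barcode sequences. Cells were assigned to types by marker gates: a barcode joined the type of which it had at least 3 of 8 markers with 2 or more UMIs each, if no other type had as many, and 55.7% to 79.7% of barcodes joined 1 of 13 types. Cell composition differed between the groups. Mature neutrophils made up 15.2%, 21.3%, 38.0% and 30.99% of passing barcodes, monocytes 2.55%, 3.67%, 4.81% and 11.05%, and skeletal cells 22.8%, 20.2%, 0.361% and 0.643%. HLU replicate 2 stood apart from the other libraries. In its mature neutrophils the 12 hypoxia-inducible genes summed to 205 CPM (UMIs per 1000000 UMIs of the gate) against 2566 to 4921 CPM in the others, and 22 NF-kB-dependent inflammatory genes summed to 7140 CPM against 2422 to 3021 CPM. Results with either HLU library left out are given for the comparisons of unloaded with control mice.

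Promoter sequence is shown for the 4 CXC ligands because motifs of the NF-kB type, which the choice of genes did not use, recur in them. Promoters from 250 bases before to 50 bases after the start were given by RefSeq (GRCm38.p6) for 7 of the 10 genes, and Ccl2, Ccl4 and Ccl5 were not matched. The NF-kB-type motif searched was GGG, then any 3 bases, then TTCC. It was searched on both strands, with overlapping matches joined into 1 stretch, and was found in 5 of these 7 promoters, those of Cxcl1, Cxcl2, Cxcl3, Cxcl10 and Ccl9. It was found in 1825 of all 32851 promoters of the same length, or 5.56%. The windows below run from base -180 to base -31 before the start, on the strand of the gene, with the motif in capitals. They lie at chr5:90891065-90891214 (plus strand) for Cxcl1, chr5:90903719-90903868 (plus) for Cxcl2, chr5:90785921-90786070 (plus) for Cxcl3 and chr5:92348920-92349069 (minus) for Cxcl10.
Cxcl1: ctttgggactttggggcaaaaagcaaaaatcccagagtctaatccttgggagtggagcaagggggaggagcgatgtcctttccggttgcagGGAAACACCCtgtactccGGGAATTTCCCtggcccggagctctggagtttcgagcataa
Cxcl2: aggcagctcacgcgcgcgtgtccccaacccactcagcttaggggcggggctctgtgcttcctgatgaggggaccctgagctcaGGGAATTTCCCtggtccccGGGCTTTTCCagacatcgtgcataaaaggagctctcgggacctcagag
Cxcl3: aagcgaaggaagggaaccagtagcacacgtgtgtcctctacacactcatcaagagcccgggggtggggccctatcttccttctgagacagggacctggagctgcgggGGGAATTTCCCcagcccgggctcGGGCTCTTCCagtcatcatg
Cxcl10: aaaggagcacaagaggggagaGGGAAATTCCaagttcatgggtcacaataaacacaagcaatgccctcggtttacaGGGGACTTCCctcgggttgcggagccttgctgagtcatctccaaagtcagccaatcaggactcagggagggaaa

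Cxcl1, Cxcl2 and Cxcl3 each held GGGAATTTCCC, which reads as the motif on both strands, and 1 more motif stretch beside it. Cxcl10 held the motif at 2 separate places. These matches describe the letters of the windows and are not binding sites shown by the data. The genes lay on 2 chromosomes. Cxcl3 (chr5:90786103-90789600), Cxcl1 (chr5:90891241-90893115) and Cxcl2 (chr5:90903871-90905938) were neighbours on chromosome 5, with Cxcl10 further along it (chr5:92346638-92348889), and the 6 CC genes lay on chromosome 11, from Ccl2 (chr11:82035571-82037453) to Ccl4 (chr11:83662584-83664683; mm10, GENCODE M21).

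The 10 chemokines came from different cells. Among the gated types, mature neutrophils held the most UMIs of Ccl6 in every library, and of Cxcl2 and Ccl3 in all but HLU replicate 2, where monocytes held more. Monocytes held the most of Cxcl3 and Ccl9 in every library, and skeletal cells the most of Cxcl1 and Ccl2 in the Ctrl libraries. Ccl5 reached its highest level among the gates in T and NK cells (27, 61, 43 and 147 barcodes), except in HLU replicate 2. There monocytes and the 34 resident macrophages exceeded them. Summed over all 10 genes, the level was 8406, 10085, 7004 and 11391 CPM in monocytes, 5345, 7202, 4800 and 5324 CPM in mature neutrophils, and 1208, 1335, 636 and 940 CPM in immature neutrophils. Monocytes were above mature neutrophils, and mature above immature neutrophils, in every library. In B cells, which are not known as a main source of most of these ligands, the sum was 620, 1781, 660 and 697 CPM. RNA free in the droplets gives UMIs in cells that do not express a gene, so levels at or below those of B cells are not read as expression. Because the libraries count transcript ends, levels of different genes are set side by side without correction for length. A lower sum may mean fewer cells with the transcript or fewer transcripts per cell, which sums cannot tell apart. All intervals and limits cover counting error only.

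**Figure D1:**
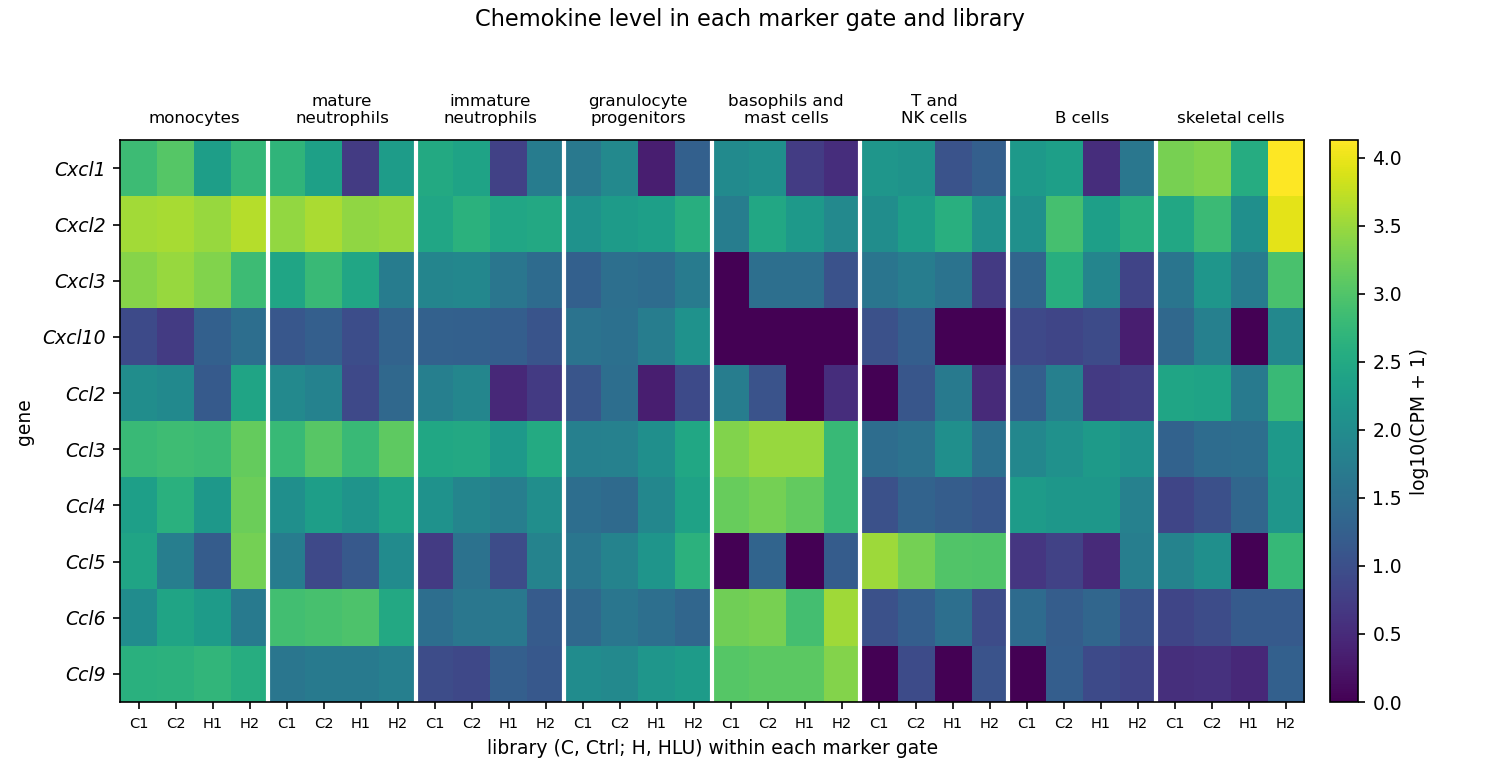
Level of each chemokine (rows) in 8 marker gates and, within each gate, the 4 libraries (columns; C1 and C2, Ctrl; H1 and H2, HLU), as log10(CPM + 1) in colour. Cxcl2 is bright in monocytes and mature neutrophils of all libraries, Ccl9 in monocytes and in basophils and mast cells, and Ccl5 in T and NK cells and in the monocytes of HLU replicate 2.

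Among the ligands of Cxcr2, Cxcl2 was the most abundant in mature neutrophils. Its UMI level was 2902, 4025, 2732 and 3043 CPM in mature neutrophils and 3596, 3910, 3040 and 4609 CPM in monocytes. In immature neutrophils it was 275, 435, 277 and 312 CPM, about the range of B cells, at 119, 807, 212 and 381 CPM. In Ctrl replicate 2, however, 1 B cell barcode held 680 of the 885 UMIs. In CPM, the Ctrl and HLU libraries overlapped in all these gates. A Cxcl2 UMI was present in 81.1%, 88.8%, 77.6% and 74.6% of mature neutrophils, which had median depths of 2554 to 4524 UMIs. With each cell thinned to 1000 UMIs the shares were 66.4%, 72.0%, 62.0% and 57.2%, against 8.28%, 16.2%, 9.9998% and 7.57% in B cells. Immature neutrophils, at 15.5%, 27.7%, 20.2% and 10.2%, were above B cells in every library. Thinned shares of monocytes were 58.4%, 64.4%, 61.7% and 76.4%. In mature neutrophils both HLU shares, thinned or not, lay below both Ctrl shares. The share of all genes with this order was not computed. Mature neutrophils held 26.5%, 28.8%, 44.6% and 25.2% of the Cxcl2 UMIs of their libraries, and monocytes 18.6%, 15.8%, 23.1% and 39.3%. The few skeletal cells of HLU replicate 2, 61 barcodes, reached 9074 CPM, against 303 and 643 CPM in the skeletal cells of the Ctrl libraries. Those of HLU replicate 1, 28 barcodes, had 111 CPM, so the HLU libraries lay on both sides of Ctrl.

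Cxcl3, a close relative with the same receptor, was more restricted. It was measured at 2413, 3133, 2211 and 665 CPM in monocytes and at 265, 623, 274 and 52.5 CPM in mature neutrophils. HLU replicate 2 was the lowest library in both gates. Monocytes made up few of the cells but held 48.2%, 42.3%, 55.3% and 58.3% of all Cxcl3 UMIs. At 1000 UMIs, Cxcl3 was detected in 39.6%, 43.8%, 36.3% and 23.1% of monocytes and in 14.9%, 23.9%, 13.6% and 3.04% of mature neutrophils.

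Cxcl1, known to be made by stromal and endothelial cells as well as by myeloid cells, was above all a skeletal transcript in the Ctrl libraries. Skeletal cells, gated by collagen and cartilage genes, contained 1928, 2192, 356 and 13414 CPM of Cxcl1, and held 51.0%, 61.0%, 8.60% and 26.3% of its UMIs. The HLU values rest on 28 and 61 barcodes, and in the Ctrl libraries the 10% of skeletal cells with the most Cxcl1 held 80.0% and 80.9% of its skeletal UMIs. In monocytes the level was 666, 1076, 206 and 567 CPM. In mature neutrophils it was 495, 220, 4.26 and 191 CPM, with HLU replicate 1 far below the other libraries. The value of HLU replicate 2 came from few of its mature neutrophils, since 6.63% had a UMI and 1 barcode held 734 of the 3052 UMIs.

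**Figure D2:**
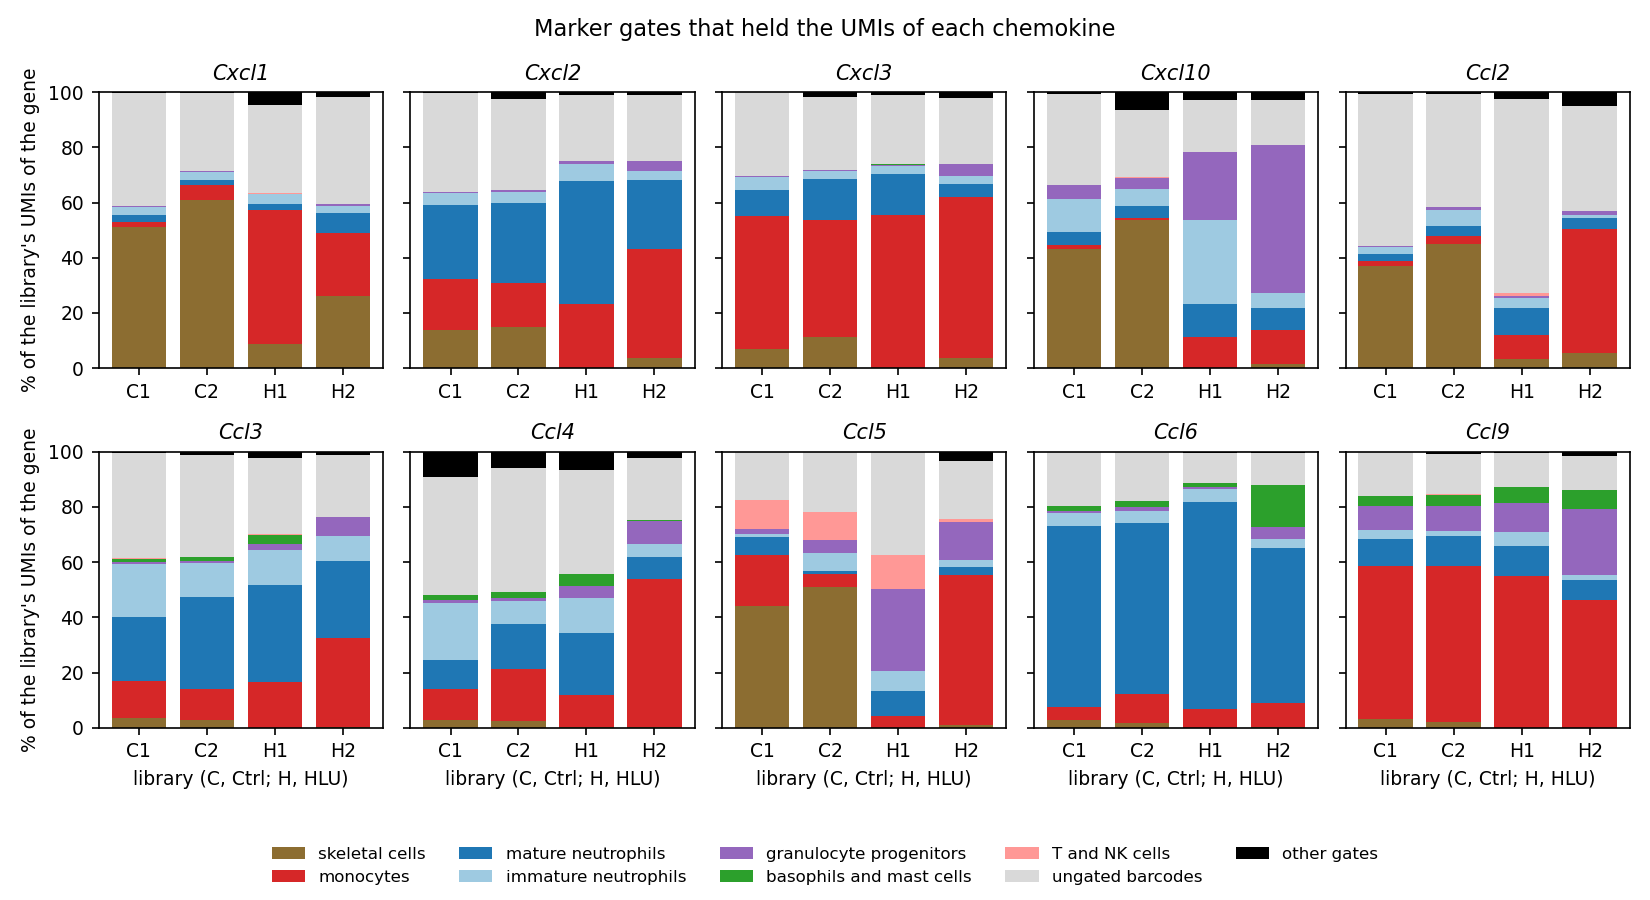
Share of each chemokine's UMIs, in percent of all its UMIs in passing barcodes of a library, by marker gate (colours; grey, barcodes in no gate), with 1 bar per library (C1 and C2, Ctrl; H1 and H2, HLU). Skeletal cells hold 51.0% and 61.0% of Cxcl1 in the Ctrl libraries, and monocytes hold 46.1% to 56.3% of Ccl9 in every library.

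Cxcl10, an interferon-inducible ligand of Cxcr3 that draws activated T cells, was found at low levels in the main myeloid gates. It was at 7.41, 4.20, 17.3 and 29.9 CPM in monocytes (17, 15, 85 and 492 UMIs) and at 12.3, 16.6, 8.51 and 19.5 CPM in mature neutrophils. Granulocyte progenitors, gated by primary granule genes such as Elane and Mpo, had 36.7, 32.2, 55.2 and 126 CPM, above monocytes in each library. At 1000 UMIs it was detected in 2.53%, 1.85%, 6.19% and 5.73% of these progenitors, against 0.587%, 0.466%, 0.642% and 0.102% of B cells. Among the gated types, skeletal cells held the most Cxcl10 in the Ctrl libraries (43.2% and 53.8% of its UMIs), immature neutrophils in HLU replicate 1 (30.7%) and granulocyte progenitors in HLU replicate 2. Skeletal cells held 1.68% in HLU replicate 2. HLU replicate 1 had 0 Cxcl10 UMIs in its 28 skeletal cells, which allows up to 5.93 CPM. Granulocyte progenitors held 5.09%, 3.94%, 24.6% and 53.7%. These shares move with the number of cells in each gate, which was 126, 201, 264 and 716 for the progenitors and 1675, 1546, 28 and 61 for skeletal cells.

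Ccl2 (MCP-1), the principal ligand of Ccr2 and a recruiter of monocytes, had a profile close to that of Cxcl1. Skeletal cells contained 263, 247, 49.4 and 635 CPM and held 37.0%, 44.9%, 3.21% and 5.43% of its UMIs. Monocytes contained 106, 91.6, 14.0 and 260.1 CPM, so that HLU replicate 1 was the lowest library and HLU replicate 2 the highest. Monocytes of HLU replicate 2 alone held 45.1% of that library's Ccl2, against 1.70% to 8.87% in the others. At 1000 UMIs, 3.29%, 5.41%, 1.502% and 11.6% of monocytes had Ccl2, and 2.11%, 3.80%, 0.190% and 0.383% of B cells. In the neutrophil gates single barcodes held much of it. One mature neutrophil barcode held 158 of 357, 237 of 421, 57 of 77 and 188 of 384 UMIs.

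Ccl3 (MIP-1α) and Ccl4 (MIP-1β), neighbouring genes of macrophage inflammatory proteins, were expressed together but not equally widely. Ccl3 was at 609, 1146, 634 and 1278 CPM in mature neutrophils, 622, 695, 640 and 1438 CPM in monocytes and 292, 312, 167 and 328 CPM in immature neutrophils. Basophils and mast cells, 10 to 59 barcodes per library, reached 2238, 3138, 3075 and 598 CPM of Ccl3 and 1462, 1833, 1352 and 606 CPM of Ccl4. HLU replicate 2 was the lowest for both in that gate. Ccl4 was lower in mature neutrophils, at 114, 205, 138 and 245 CPM, which was about the level of B cells at 181, 150, 153 and 64.4 CPM. At 1000 UMIs it was nevertheless found in 6.85%, 11.003%, 8.98% and 8.60% of mature neutrophils against 3.17%, 3.58%, 3.97% and 4.13% of B cells, where single barcodes held up to 94 UMIs. In monocytes Ccl4 was at 217, 415, 157 and 1591 CPM, and 23.5%, 42.5%, 31.6% and 83.9% of monocytes had a UMI, so the monocytes of HLU replicate 2 differed from all others. Those monocytes also held 53.7% of that library's Ccl4, against 11.3% to 18.9% elsewhere.

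Ccl5 (RANTES), a ligand made by cytotoxic lymphocytes, was at 3272, 1821, 1030 and 966 CPM in T and NK cells, and 66.7%, 44.3%, 60.5% and 49.0% of these cells had a UMI. In monocytes it was at 260, 57.1, 14.6 and 1813 CPM. Only HLU replicate 2 had Ccl5 in a large share of monocytes, 44.8% with a UMI and 28.9% at 1000 UMIs, against 4.83% to 6.79% and 0.761% to 3.07% in the other libraries. In the first Ctrl library 1 monocyte barcode held 433 of the 597 UMIs. The 34 resident macrophages of HLU replicate 2, gated by complement C1q and related genes, had 7169 CPM of Ccl5 and 4525 CPM of Ccl4. The other libraries had 1 to 5 such cells. For Ccl4 the 2 and 5 such cells of the Ctrl libraries had a mean of 5397 CPM (SD 1546), so HLU replicate 2 did not exceed them. Granulocyte progenitors had 40.6, 69.5, 143 and 451 CPM of Ccl5, without overlap between the groups. T and NK cells held 10.5%, 10.3%, 12.3% and 0.855% of the Ccl5 of their library. Skeletal cells, at 70.5 and 111 CPM, held 44.0% and 51.1% of it in the Ctrl libraries.

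Ccl6 and Ccl9, rodent ligands of Ccr1 made by myeloid cells, were divided between neutrophils and monocytes. Ccl6 was a neutrophil transcript, at 766, 845, 941 and 314 CPM in mature neutrophils, 29.8, 43.1, 44.7 and 14.5 CPM in immature neutrophils and 98.9, 253, 182 and 48.0 CPM in monocytes. Mature neutrophils held 65.6%, 61.8%, 74.9% and 56.2% of its UMIs. HLU replicate 2 was the lowest library in all 3 gates. Ccl9 was a monocyte transcript, at 419, 451, 521 and 369 CPM in monocytes and 40.4, 49.6, 47.4 and 58.9 CPM in mature neutrophils. It was present in granulocyte progenitors, at 100.2, 86.8, 145 and 184 CPM, and scarce in B cells, with 0, 18, 18 and 5 UMIs, where a count of 0 allows up to 5.31 CPM. Both genes were also high in basophils and mast cells, Ccl6 at 1702, 1906, 792 and 3438 CPM and Ccl9 at 1092, 1201, 1222 and 2332 CPM. There HLU replicate 2 was the highest library.

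Monocytes and mature neutrophils were compared within libraries by edgeR's quasi-likelihood test on summed UMIs, with the library as a block. Monocytes had more Cxcl3, Ccl9 and Ccl5 than mature neutrophils, and less Ccl6, Ccl3 and Cxcl2, relative to the normalization over all genes. These 6 of the 10 genes passed an adjusted p of 0.05, as did 61.9% of all genes tested, and at an unadjusted p of 0.05 they passed too, with 66.9% of all genes, so the count itself does not set the chemokines apart. Cxcl3 was higher in monocytes by 2.29 on the log2 scale (SE 0.22, adjusted p = 0.000263) and Ccl9 by 2.41 (SE 0.21, adjusted p = 0.00018). Ccl5 was higher by 1.74 (SE 0.59, adjusted p = 0.0393), with large differences among the libraries, and its call was lost without either Ctrl library (adjusted p = 0.0962 without Ctrl replicate 1 and 0.123 without Ctrl replicate 2, the largest over 12 alternatives). Ccl6 had a log2 difference of -3.20 (SE 0.23, adjusted p = 0.000103), Ccl3 of -0.88 (SE 0.18, adjusted p = 0.00538) and Cxcl2 of -0.50 (SE 0.13, adjusted p = 0.0145).

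The difference in Ccl3 depended on the scaling, and that in Cxcl2 on the scaling and other choices. The call of Cxcl2 was also lost without the filter on low counts (adjusted p = 0.129), with the stricter gate (0.0536), without Ctrl replicate 2 (0.0728) and without HLU replicate 1 (0.227). The trimmed-mean (TMM) factors were 1.21 to 1.38 for monocytes and 0.64 to 0.83 for mature neutrophils, and scaling by total UMIs instead moved the median of all genes from -0.03 to 0.73 on the log2 scale. The share of calls that were higher in monocytes then went from 46.1% to 77.2%. Under that scaling Cxcl2 stood at 0.26, above 0, and Ccl3 at -0.12 (adjusted p = 0.55), whereas Cxcl3, Ccl9 and Ccl6 kept their direction and their calls. The range of the adjusted p over 12 alternatives was 0.00582 to 0.227 for Cxcl2 and 0.000168 to 0.55 for Ccl3. Cxcl1 (1.47, SE 0.78), Ccl2 (0.49, SE 0.51), Ccl4 (0.44, SE 0.35) and Cxcl10 (-0.87, SE 0.48) did not pass. Of the chemokine receptor genes listed, Ccr1 (-2.33, adjusted p = 7.15e-05) and Ccrl2 (-1.80, adjusted p = 0.000865) were lower in monocytes. Ccrl2 was also on the list of NF-kB-dependent genes. Ccr2 and Cxcr2 were themselves gate markers. Of 10 other chemokine ligands tested, Cxcl16 (3.36) and Cxcl5 (0.78) were higher in monocytes and Cxcl12 (-2.05) lower. Their adjusted p was 0.000465, 0.0145 and 0.00793. The summed skeletal markers were also lower in monocytes than in mature neutrophils in every library, as given below. The part of skeletal RNA in the value of Cxcl12 was not tested.

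Within a cell type, several chemokine pairs were detected in the same barcodes. After thinning each barcode to 1000 UMIs, Ccl3 was found in 68.9%, 68.4%, 61.1% and 74.0% of mature neutrophils with Ccl4, against 34.0%, 41.6%, 33.2% and 43.7% of those without. In monocytes the shares were 92.3%, 69.2%, 61.5% and 73.1% against 21.3%, 32.4%, 26.5% and 40.0%, with only 13 to 39 barcodes with Ccl4 outside HLU replicate 2. Cxcl2 was likewise found in 85.5%, 94.96%, 84.3% and 97.1% of monocytes with Cxcl3 and in 45.0%, 47.8%, 45.9% and 69.4% of those without. In mature neutrophils these were 91.2%, 91.2%, 83.4% and 90.8% against 62.8%, 66.2%, 58.7% and 56.2%. Not every pair behaved alike: Cxcl3 was found in 12.8%, 19.0%, 14.7% and 4.81% of mature neutrophils with Ccl9 and in 14.4%, 23.9%, 13.9% and 2.89% of those without. In monocytes these were 53.3%, 55.1%, 43.4% and 25% against 34.6%, 38.4%, 34.2% and 22.5%. Cxcl2 was found less often in monocytes with Ccl6 than without it in Ctrl replicate 2 (63.2% against 68.6%) and HLU replicate 1 (54.1% against 61.5%). It was found more often with Ccl6 in the other libraries. These pairs were among 8 chosen after levels had been seen and are given as descriptions. Barcodes of a gate also differ in type and in admixed RNA.

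**Figure D3:**
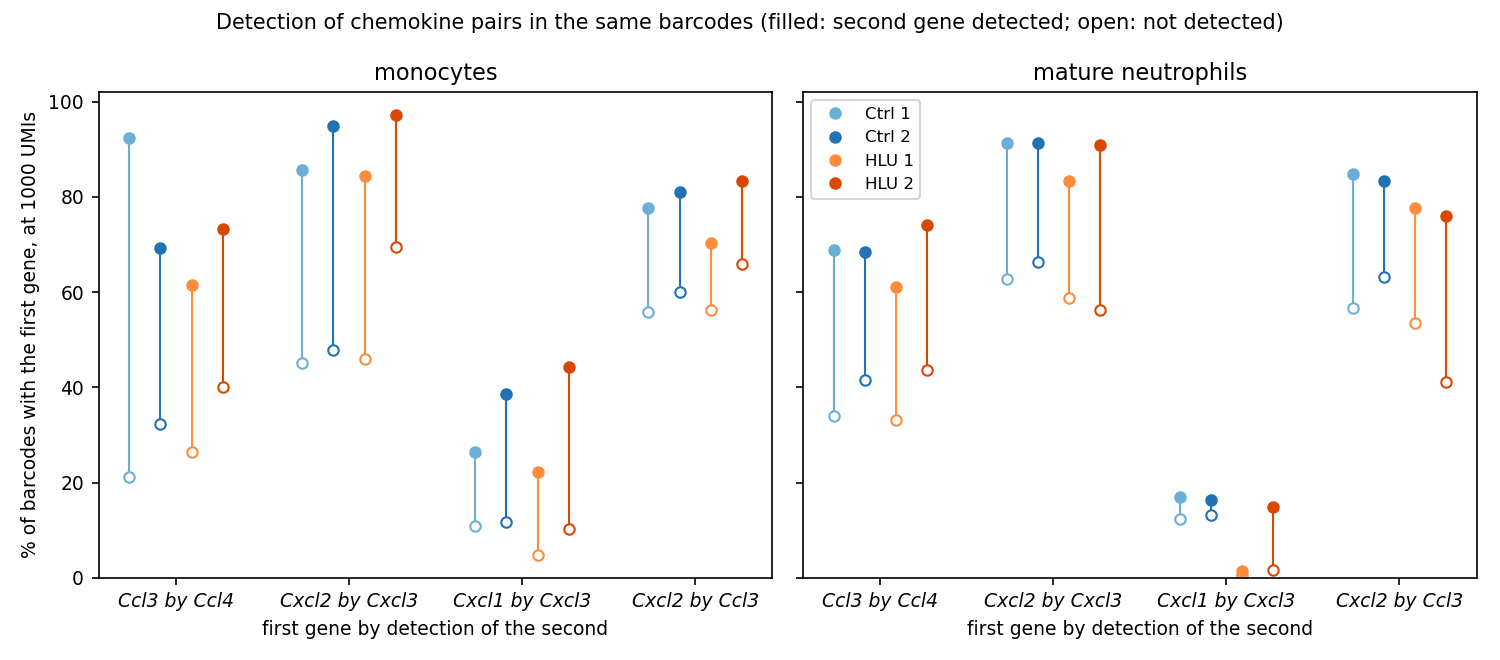
Share of monocytes and mature neutrophils, in percent, with the first gene of a pair, in barcodes with the second gene (filled) and without it (open), after thinning to 1000 UMIs, by library. Filled points lie above open points for the 4 pairs shown in both cell types, by the widest margin for Ccl3 by Ccl4 in the monocytes of Ctrl replicate 1 (92.3% against 21.3%, 13 barcodes with Ccl4).

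At the same depth, at least 1 of the 10 chemokines was detected in 84.0%, 88.0%, 81.8% and 76.3% of mature neutrophils, 79.1%, 86.4%, 85.5% and 93.9% of monocytes and 27.8%, 39.7%, 21.7% and 19.1% of B cells. At least 3 were detected in 31.6%, 39.5%, 26.7% and 17.8% of mature neutrophils and in 35.3%, 41.4%, 34.0% and 58.6% of monocytes. HLU replicate 2 was thus the lowest library for mature neutrophils and the highest for monocytes. In B cells, at least 3 were detected in 0.87% to 1.91% of barcodes.

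Profiles were also compared over 27 sums of 1 library and 1 gate with at least 50 barcodes, by Pearson correlation of log2(CPM + 1). These sums share libraries, depth and gates, so the coefficients are descriptions. Among the 10 chemokines the most alike were Cxcl1 and Ccl2 (r = 0.926), Ccl3 and Ccl4 (0.861) and Cxcl2 and Cxcl3 (0.853). Of 6246 other genes, the closest to both Cxcl1 (0.934) and Ccl2 (0.944) was Cav1, which encodes the caveolar coat protein caveolin-1 of stromal and endothelial cells, followed by Slc7a2 for Cxcl1 (0.928) and Dab2 for Ccl2 (0.930). Ptgs2, the inducible cyclooxygenase, was the closest to both Cxcl2 (0.895) and Cxcl3 (0.911), with Ifi204 (0.889) and Ednrb (0.862) next. Plek, the leukocyte protein pleckstrin, was the closest to Ccl3 (0.932) and Ccl4 (0.8196), followed by Pirb (0.910) and Zeb2 (0.791). For Ccl6 they were Kcnj2 (0.929) and Emilin2 (0.895), for Ccl9 Ifitm1 (0.885) and Slc7a8 (0.873), for Cxcl10 Dstn (0.788) and Tgm2 (0.757), and for Ccl5 Slco3a1 (0.782) and Socs3 (0.684).

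Unloaded and control mice were compared within each gate by the same test, which with 2 libraries per group measures only the spread between these libraries. In monocytes, no chemokine differed at an adjusted p of 0.05, and 0.00967% of all genes tested did. At an unadjusted p of 0.05, 1 of the 10 passed, against 6.11% of all genes. That gene was Cxcl10, which was higher in both HLU libraries than in both Ctrl libraries (fold change 2.06 on the log2 scale, SE 0.50, adjusted p = 0.367). Its Ctrl values in monocytes, with a mean of 5.80 CPM, lay within the range of B cells over the libraries, 1.19 to 7.78 CPM. The fold change of Cxcl10 is thus measured from about that level. Of the others, 2 genes, Cxcl1 and Cxcl3, were lower in both HLU libraries than in both Ctrl libraries, as were 17.6% of all genes, and Cxcl10 was the 1 gene above, as were 20.1%. The fold change was -1.15 for Cxcl1 (SE 0.57, adjusted p = 0.803) and -0.97 for Cxcl3 (SE 0.58, adjusted p = 0.803). Ccl5 had the widest error (2.53, SE 1.86), followed by Ccl2 (0.50, SE 1.15) and Ccl4 (1.51, SE 1.02). Ccl9 (0.02, SE 0.31) and Cxcl2 (0.03, SE 0.37) had estimates near 0.

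The 2 HLU libraries decided these values. Without HLU replicate 2, the log2 fold change in monocytes was -3.49 for Ccl5, -1.05 for Ccl4 and -2.86 for Ccl2. Without HLU replicate 1 it was 4.10, 2.39 and 1.44. The test was passed by 7 chemokines without HLU replicate 1 (Cxcl10, Ccl2, Ccl5, Ccl3 and Ccl4 higher, Cxcl3 and Ccl6 lower) and 3 without HLU replicate 2 (Cxcl1, Ccl2 and Ccl5, all lower). In both cases the lone HLU library is assumed to vary like the Ctrl libraries. Ccl2 and Ccl5 were thus called in opposite directions depending on which unloaded mouse was kept. In the same monocytes the 22 NF-kB-dependent genes summed to 5873, 5728, 4969 and 12533 CPM and the 12 hypoxia-inducible genes to 3407, 4227, 2718 and 382 CPM. Il1b was at 1634, 1254, 1150 and 4274 CPM, and the 8 markers of immature neutrophils summed to 410, 867, 901 and 2379 CPM. The part of these differences between the HLU mice in the chemokine values was not tested.

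**Figure D4:**
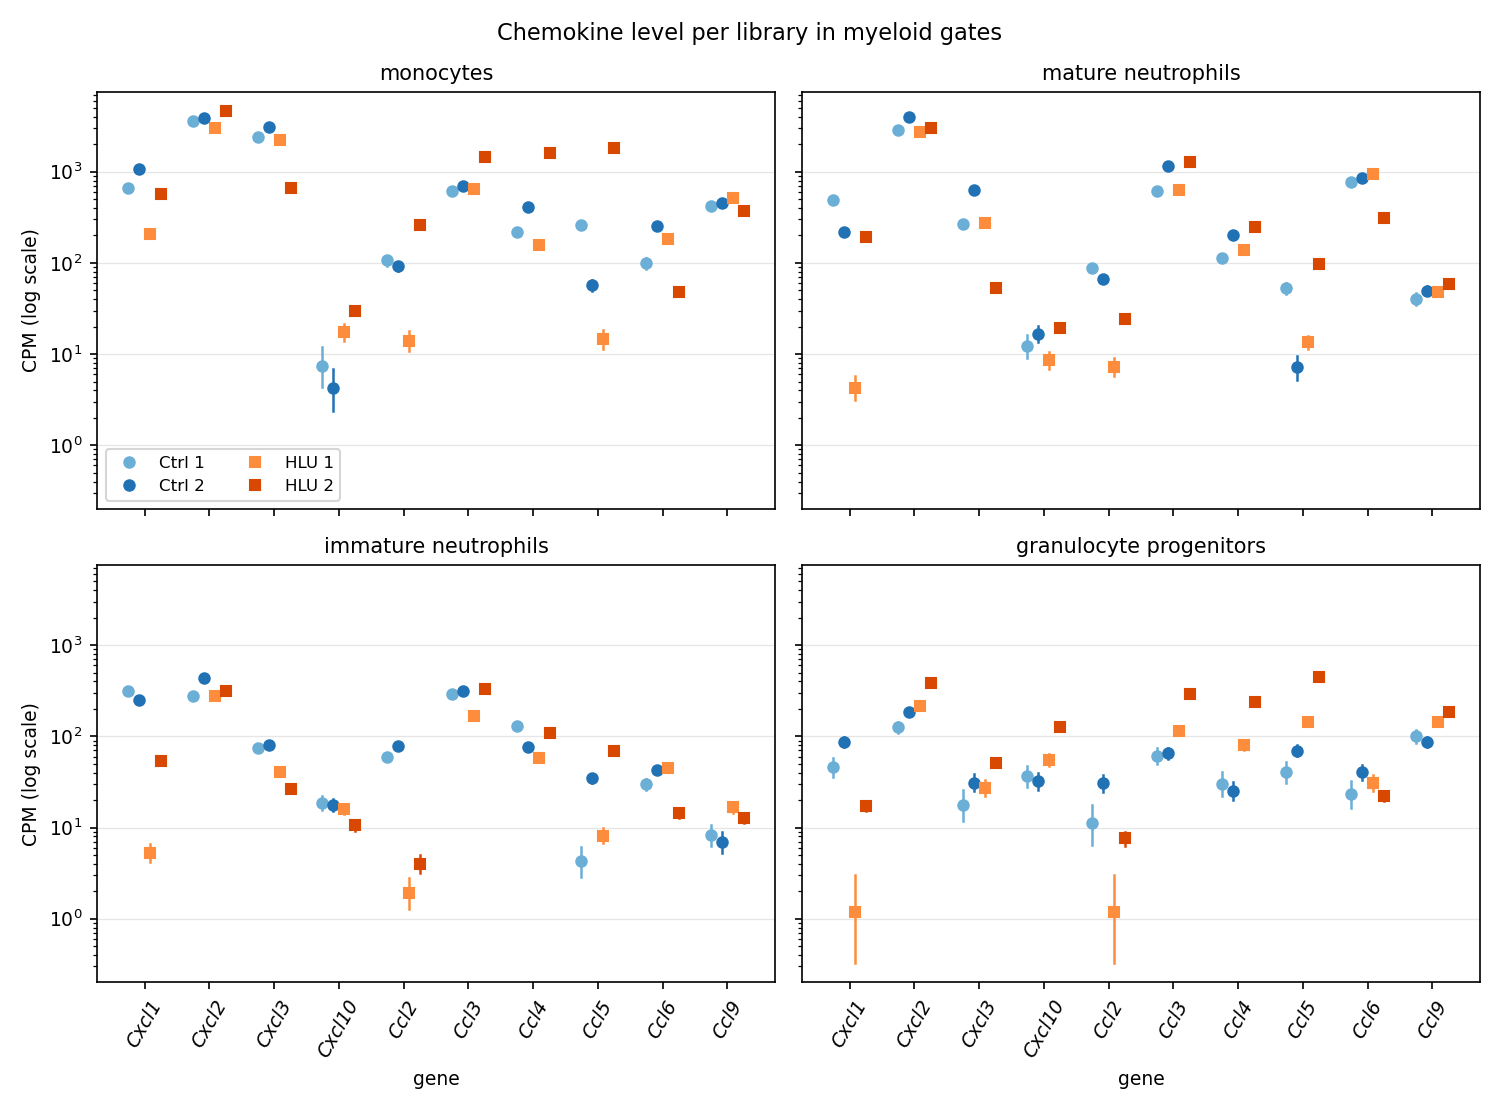
CPM (log scale) of the 10 chemokines in 4 myeloid gates, with 1 point per library (circles, Ctrl; squares, HLU) and 95% Poisson intervals of the counts as bars. The 2 HLU libraries stand far apart for Ccl4 and Ccl5 in monocytes (157 and 1591 CPM, and 14.6 and 1813 CPM) and lie together below Ctrl for Ccl2 in immature neutrophils.

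In mature neutrophils no chemokine passed either, against 6.03% of all genes (0.0647% higher and 5.96% lower), and 1 passed at an unadjusted p of 0.05, against 17.6%. Ccl2 was at 88.0 and 66.7 CPM in the Ctrl and 7.28 and 24.0 CPM in the HLU libraries (log2 fold change -1.90, SE 0.67, adjusted p = 0.19999). Cxcl1, with a fold change of -1.37 (SE 1.39, adjusted p = 0.67), was the other gene below Ctrl in both HLU libraries, as were 31.6% of all genes, and none lay above, against 14.6%. Cxcl3 had the same fold change with a smaller error (-1.37, SE 0.69, adjusted p = 0.373), but its groups overlapped in CPM. Its thinned shares, given above, were below Ctrl in both HLU libraries. Cxcl2 was at 0.02 (SE 0.47), Ccl6 at -0.23 (SE 0.46) and Ccl9 at 0.53 (SE 0.38). In all, 8 chemokines passed without HLU replicate 1 and 3 without HLU replicate 2, and Ccl5 was again called in opposite directions, higher in the former and lower in the latter.

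Ccl2 had a lower level in the immature neutrophils of the HLU libraries. It was the 1 of 10 chemokines that passed there, against 2.84% of all genes. It was at 58.8 and 78.1 CPM (414 and 671 UMIs) in the Ctrl and 1.94 and 4.03 CPM (28 and 82 UMIs) in the HLU libraries, with no overlap (log2 fold change -4.36, SE 0.50, adjusted p = 0.0129). A single barcode held 211, 299, 5 and 17 of these UMIs. The Ctrl values were above those of B cells, given below, whereas the HLU values were below them and are not read as expression. In all, 4 genes (Ccl2, Cxcl1, Cxcl3 and Cxcl10) were below Ctrl in both HLU libraries, as were 23% of all genes, and 1 (Ccl9) above, as were 22.2%. Cxcl1 was at 317, 251, 5.26 and 53.8 CPM (log2 fold change -3.06, SE 1.03, adjusted p = 0.246), Cxcl3 at 75.5, 80.9, 41.1 and 26.6 CPM (-1.15, SE 0.27, adjusted p = 0.0964) and Ccl9 at 8.24, 6.87, 16.6 and 12.7 CPM (1.03, SE 0.30, adjusted p = 0.186). The call of Ccl2 was kept without any 1 library (log2 fold change -5.24 to -3.84) and was lost with putative doublets left out (-3.69, adjusted p = 0.237), the only one of 13 alternatives to lose it. Its adjusted p over these alternatives ran from 5.01e-24 to 0.237.

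Ccl2 and Cxcl1 had lower values in the HLU libraries in 3 further sets of barcodes. Neither gene passed the test in granulocyte progenitors, and the other sets were not tested. In granulocyte progenitors Cxcl1 was at 45.9, 86.1, 1.19 and 17.3 CPM and Ccl2 at 11.1, 30.5, 1.19 and 7.59 CPM. In B cells Cxcl1 was at 165, 213, 2.46 and 41.7 CPM and Ccl2 at 15.9, 62.9, 4.09 and 4.77 CPM. The progenitors were below B cells for Cxcl1 in every library and for Ccl2 in all but HLU replicate 2. Those values are not read as expression. Barcodes under 1000 UMIs, which were left out of all gates, had 1372, 1872, 39.0 and 772 CPM of Cxcl1 and 284, 312, 13.7 and 97.2 CPM of Ccl2. In each of these the 2 HLU libraries were below the 2 Ctrl libraries, and HLU replicate 1 was the lowest for both genes. Ccl2 did not follow this order everywhere: HLU replicate 2 was the highest library for it in monocytes and skeletal cells, as given above, and in T and NK cells it was at 0, 11.9, 46.6 and 2.06 CPM, where the count of 0 allows up to 28.9 CPM.

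**Figure D5:**
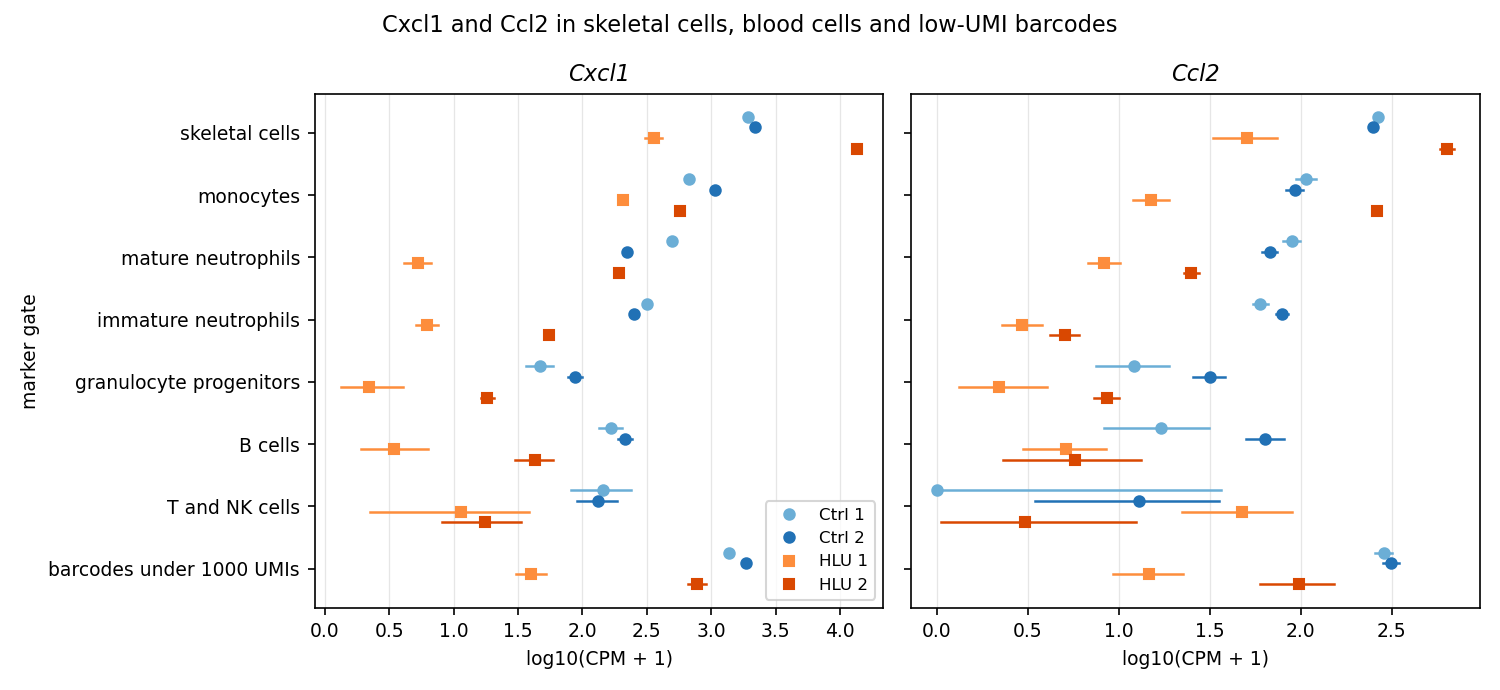
Cxcl1 (left) and Ccl2 (right) as log10(CPM + 1) in 7 marker gates and in barcodes under 1000 UMIs, with 1 point per library (circles, Ctrl; squares, HLU) and 95% Poisson intervals of the counts as bars. Cxcl1 of both HLU libraries lies below both Ctrl libraries in every set of barcodes shown except skeletal cells, where HLU replicate 2 is the highest.

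Skeletal transcripts found in other gates were also lower in the HLU libraries. The 8 skeletal markers, Col1a1, Col1a2 and Col2a1 among them, summed to 496, 486, 133 and 22.6 CPM in immature neutrophils, 656, 820, 86.7 and 76.9 CPM in mature neutrophils, 251, 358, 28.5 and 16.1 CPM in monocytes and 533, 766, 11.5 and 3.58 CPM in B cells. In each of these gates both HLU libraries lay below both Ctrl libraries. Between the HLU libraries the order differed. The marker sum was lower in HLU replicate 2, whereas Cxcl1 and Ccl2 were lower in HLU replicate 1 in each of these gates. In T and NK cells, where 3 chemokines could be tested, Cxcl1 fell (144, 131, 10.3 and 16.4 CPM, from 15, 33, 2 and 8 UMIs, log2 fold change -3.15, SE 0.49, adjusted p = 0.0459, against 0.386% of all genes called). That call was lost without either Ctrl library (adjusted p = 0.101 and 0.131) and with a stricter gate (0.0837), within a range of 1.64e-05 to 0.131 over 13 alternatives. These levels were below those of B cells in every library but HLU replicate 1, and are not read as expression of Cxcl1 by T and NK cells. The part of free or admixed skeletal RNA in the values of Cxcl1 and Ccl2 was not tested. Ccl5 in T and NK cells stood at -1.32 on the log2 scale (SE 0.34, adjusted p = 0.422), without overlap between the groups, and Cxcl2 at 0.64 (SE 0.54). With the stricter gate Cxcl2 was the 1 chemokine called there, lower at -2.75 (adjusted p = 0.0201). At an unadjusted p of 0.05, Cxcl1 and Ccl5 passed, against 4.69% of all genes.

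Granulocyte progenitors stood on the other side for most genes. In all, 6 of the 10 chemokines (Cxcl2, Cxcl10, Ccl3, Ccl4, Ccl5 and Ccl9) were above Ctrl in both HLU libraries, as were 34.3% of all genes tested, and 2 (Cxcl1 and Ccl2) below, as were 9.28%. None passed the test, and 0.493% of all genes did. At an unadjusted p of 0.05, 6 of the 10 passed when both directions were counted, against 5.8% of all genes. Ccl4 was at 30.1, 25.4, 80.1 and 237 CPM (log2 fold change 2.26, SE 0.52, adjusted p = 0.287) and Ccl5, given above, had 2.17 (SE 0.56, adjusted p = 0.410). Ccl3 was at 61.6, 65.1, 114 and 292 CPM (1.43, SE 0.45, adjusted p = 0.755) and Cxcl10 at 1.15 (SE 0.42, adjusted p = 0.756). Ccl3 and Ccl4 were above the level of B cells in HLU replicate 2 alone. Cxcl2, at 126, 184, 214 and 385 CPM, was near or below that level in every library. For Cxcl2 this limit is rough, since a single barcode held most of the B cell UMIs of Ctrl replicate 2, as given above. The sums therefore cannot decide whether progenitors express Cxcl2. The values of these 3 genes that were not above the level of B cells are not read as expression. HLU replicate 2 was the highest library for each, and its progenitors had a median of 24542.5 UMIs against 11315 to 14792. With 1 library left out at a time, the log2 fold change ranged from 1.38 to 2.77 for Ccl4 and 1.19 to 2.68 for Ccl5. For the genes below Ctrl it ranged from -5.92 to -2.29 for Cxcl1 and -4.29 to -1.56 for Ccl2. This comparison and that in T and NK cells were added after the levels had been seen.

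Over all passing barcodes, which mix the level per cell with cell composition, Ccl9 rose in unloaded mice. It was at 30.7, 48.6, 103 and 150.4 CPM, with no overlap (log2 fold change 1.76, SE 0.39, adjusted p = 0.0316), and was the 1 chemokine that passed, against 23.2% of all genes in either direction and 6.06% in this one. It was also the only one at an unadjusted p of 0.05, against 38.2% of all genes. Within monocytes, which held 46.1% to 56.3% of it, its groups overlapped, as they did in mature neutrophils. In immature neutrophils and granulocyte progenitors Ccl9 was above Ctrl in both HLU libraries. Monocytes made up a larger share of barcodes in both HLU libraries, and the part of cell composition in the value over all barcodes was not tested. The call was lost without either Ctrl library (adjusted p = 0.313 without Ctrl replicate 1 and 0.125 without Ctrl replicate 2, in a range of 0.000368 to 0.313 over 11 alternatives). Ccl3 (190, 371, 421 and 838 CPM, adjusted p = 0.148) and Ccl4 (78.1, 134, 144 and 557 CPM, adjusted p = 0.131) were also above Ctrl in both HLU libraries, so that 3 of 10 were, against 28.6% of all genes. Cxcl1 (1360, 1261, 46.2 and 473 CPM, log2 fold change -2.20, SE 1.06) and Ccl2 (256, 193, 17.2 and 108 CPM, -1.71, SE 0.87) were below in both, against 37.1% of all genes. Ccl5 was at 57.5, 76.2, 35.7 and 627 CPM, lowest in HLU replicate 1 and highest in HLU replicate 2.

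The effect of unloading was not shown to differ between monocytes and mature neutrophils for any chemokine. None of the 10 passed the test of the difference itself, against 0.00876% of all genes, and 2 passed at an unadjusted p of 0.05, against 9.89%. These were Cxcl10, with a difference of 1.96 on the log2 scale (SE 0.53, adjusted p = 0.290), and Ccl2, with 1.75 (SE 0.64, adjusted p = 0.426). The Ctrl monocyte values of Cxcl10 lay within the range of B cells, as given above. Without HLU replicate 1, 5 passed, and 2 without HLU replicate 2. By the exact two-sided permutation test over libraries, which cannot go below p = 0.333 here, no difference in the share of cells with a chemokine UMI could pass.

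The other genes of the pathway gave few calls. In monocytes, none of 10 other chemokine ligands, 5 receptors, 22 NF-kB-dependent genes, 12 interferon-stimulated genes, 18 immediate early genes known from tissue dissociation or 12 hypoxia-inducible genes passed, and the medians of their log2 fold changes were -0.24, -0.65, 0.15, -0.23, -0.46 and -1.23, against 0.03 for all genes and 0.26 for the 10 chemokines. Among the NF-kB-dependent genes, Tnf had 1.35 (adjusted p = 0.803) and Ptgs2 -0.89 (adjusted p = 0.732). In mature neutrophils, Cx3cl1, the ligand of Cx3cr1, fell by 4.03 on the log2 scale (56, 39, 1 and 12 UMIs, adjusted p = 0.0466). Ackr2, a scavenger of CC chemokines, fell too (12, 21, 0 and 2 UMIs, adjusted p = 0.0275). Over all barcodes the log2 fold change was -3.82 for Cx3cl1 and -6.67 for Ackr2. Their few UMIs in mature neutrophils were not set against the level of B cells. The part of free or admixed skeletal RNA in the values of mature neutrophils was not tested. Of 14 interferon-stimulated genes 2 rose, Oasl2 (1.77, adjusted p = 0.0469) and Ifit1 (2.32, adjusted p = 0.0497), whereas Cxcl10, which also responds to interferon, had 0.31 (SE 0.58). Of the NF-kB-dependent genes, 19 of 22 had positive fold changes there with a median of 0.69 and no call, but their summed level was higher than Ctrl in HLU replicate 2 alone, at 2843, 3021, 2422 and 7140 CPM. In the same cells 1 of 18 immediate early genes (Fosb) and 2 of 12 hypoxia-inducible genes (Car9 and Adm) fell, with medians of -0.85 and -1.54. Of all genes tested there, 0.0647% were called higher and 5.96% lower. The alternatives of the closing section are not given for single genes of these lists.

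In immature neutrophils, Cx3cl1 (-4.11, adjusted p = 0.0251), Ackr2 (12, 28, 0 and 0 UMIs, adjusted p = 0.0336), the adhesion molecule Icam1 (-2.23, adjusted p = 0.0313) and Atf3 (-2.40, adjusted p = 0.0483) fell beside Ccl2. Of all genes tested there, 2.84% were called lower. Here too, Cx3cl1 and Ackr2 were not set against the level of B cells, and the part of skeletal RNA was not tested. Over all barcodes, 6 of 17 other chemokine ligands fell (Ccl8, Ccl11, Ccl19, Cxcl12, Cxcl14 and Cx3cl1) and none rose, against 17.1% of all genes that fell and 6.06% that rose. Several of these, such as Cxcl12, are known products of stromal cells. Skeletal cells made up a smaller share of barcodes in both HLU libraries, and the part of cell composition in these calls was not tested. Cxcr2, the neutrophil receptor for Cxcl1, Cxcl2 and Cxcl3 and a marker of the mature neutrophil gate, rose over all barcodes (1.49, adjusted p = 0.0291).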

How the data were processed

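The authors aligned and counted reads with Cell Ranger (6.0.0, mm10) and deposited raw UMI counts per gene and barcode, 1 matrix per library from the 10x Genomics 3′ kit V3.1. The submitters' notes also name Seurat (4.1.0). Matrices were read as deposited and barcodes kept with 1000 to 40000 UMIs and at most 10% mitochondrial UMIs. Depth was 47819046 to 99849070 UMIs per library in the files. Gates used 13 lists of 8 markers, and 3 markers at 2 UMIs. UMIs were summed per library and gate and tested with edgeR (4.0.16; TMM factors, filterByExpr, quasi-likelihood test, Benjamini-Hochberg adjustment over all genes tested, threshold 0.05), and the standard error is the fold change divided by the root of F. Named genes were the 10 chemokines, the called genes of each list and the 2 most similar profiles; Il1b, Tnf, Ptgs2 and the markers were chosen after their values were seen. Members, lists and gate thresholds were chosen with earlier results of these data known. DESeq2 (1.42.0) and the other alternatives are given in the closing section. Putative doublets (Scrublet in scanpy 1.11.5, 0.8% per 1000 barcodes) were kept in the main values. Poisson and Clopper-Pearson intervals cover 95%, and a count of 0 allows 3 counts. The fitting code was tested on simulated data. The result of 1 gene of the lists is not reported here.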

Additional observations from a re-analysis of the deposited data

Results flagged for a closer look

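Ccl9 was also measured in barcodes that no comparison used. In barcodes under 1000 UMIs it was at 87.9 and 66.3 CPM in the Ctrl libraries (2585 and 2212 barcodes). In the HLU libraries it was at 165 and 240.4 CPM (2143 and 267 barcodes), so that both lay above both Ctrl libraries. The value of HLU replicate 2 rests on 47 UMIs. In barcodes over 40000 UMIs the groups overlapped, at 209, 278, 149 and 296 CPM. Ccl9 was singled out among all 10 chemokines measured in these barcodes, and the share of all genes with this order was not computed.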

How the results depend on the processing

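Of the alternatives run, leaving out HLU replicate 1 changed the most calls, with 38 chemokine values gaining one, and leaving out barcodes over 0.2% haemoglobin UMIs changed none. Scaling by total UMIs and the looser gate were chosen after seeing the data. Counts below are of the 10 chemokines with an adjusted p under 0.05, other values are log2 fold changes, and causes of the changes were not tested. DESeq2 called 4 over all barcodes, 2 in granulocyte progenitors and 2 in immature neutrophils, and no filter on low counts called 5 in granulocyte progenitors, 4 in immature and 4 in mature neutrophils, 3 in monocytes and 2 for the difference between monocytes and mature neutrophils. The replicate numbers pair no animals; with them as a replicate block, 3 were called over all barcodes and 4 in granulocyte progenitors, Ccl2 stood at -0.65 and Cxcl2 at -0.012 in monocytes. With putative doublets left out, 0 were called in immature neutrophils. The sign of Cxcl2 in mature neutrophils turned with DESeq2 (-0.00028), RLE factors (-0.00027), no filter (-0.040), total UMIs (-0.26), doublets left out (-0.17) and the looser gate (-0.073). It turned for Cxcl10 in mature neutrophils (-0.048) and Cxcl3 over all barcodes (-0.013) with total UMIs, which also put Cxcl2 at 0.26 for monocytes against mature neutrophils. With the looser gate of 2 markers Ccl2 in monocytes was -0.19, Ccl4 in immature neutrophils 0.14 and Ccl4 for monocytes against mature neutrophils -0.11. With the stricter gate of 4 markers Ccl9 in monocytes was -0.080, Cxcl2 in monocytes -0.058, Cxcl2 in T and NK cells -2.75 and Cxcl3 in granulocyte progenitors -0.026. With doublets left out Ccl9 in monocytes was -0.044 and Cxcl2 in T and NK cells -0.66. The HLU minus Ctrl difference in the share of cells with a UMI became positive without thinning for Ccl6 in monocytes (4.41 percentage points), Ccl4 (2.51) and Ccl9 (0.358) in mature neutrophils and Ccl3 (3.37), Ccl4 (0.309), Ccl5 (2.46) and Cxcl10 (0.751) in immature neutrophils. With the stricter gate it did so for Ccl4 in mature neutrophils (0.0305) and Ccl3 (0.386) and Ccl5 (0.0402) in immature neutrophils.

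With 1 library left out at a time, the counts ranged from 0 to 7 in monocytes, 0 to 8 in mature neutrophils, 1 to 5 in immature neutrophils, 0 to 9 in granulocyte progenitors, 0 to 2 in T and NK cells, 0 to 7 over all barcodes and 0 to 5 for the difference between monocytes and mature neutrophils. In monocytes the log2 fold change ranged from -0.35 to 0.34 for Cxcl2, -2.86 to 1.44 for Ccl2, -0.089 to 1.17 for Ccl3, -1.05 to 2.39 for Ccl4, -3.49 to 4.10 for Ccl5, -1.82 to 0.14 for Ccl6 and -0.19 to 0.21 for Ccl9. In mature neutrophils it ranged from -0.36 to 0.32 for Cxcl2, -0.80 to 0.92 for Cxcl10, -0.49 to 1.04 for Ccl3, -0.23 to 1.12 for Ccl4, -1.12 to 3.38 for Ccl5 and -0.85 to 0.21 for Ccl6. In immature neutrophils it ranged from -0.49 to 0.18 for Cxcl2, -0.96 to 0.36 for Ccl3, -0.92 to 0.33 for Ccl4, -1.37 to 3.36 for Ccl5 and -1.10 to 0.18 for Ccl6. For Cxcl3 it ranged from -0.044 to 0.84 in granulocyte progenitors and from -0.42 to 0.70 over all barcodes, where it was -0.86 to 0.81 for Cxcl10 and -0.91 to 3.45 for Ccl5. For Cxcl2 in T and NK cells it ranged from -0.29 to 1.28, and for Ccl2 in monocytes against mature neutrophils from -0.065 to 0.81.

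Counts over all genes moved more, except between monocytes and mature neutrophils. In monocytes 1 gene passed, against 194 with DESeq2, 597 without the filter, 0 with doublets left out, 121 with the looser gate, 95 with the replicate block, and 0, 3, 3507 and 342 without each library in turn. In mature neutrophils 652 passed, against 1660 without the filter, 104 with doublets left out, and 229, 338, 3795 and 1681 without each library. In immature neutrophils 318 passed, against 584 with DESeq2, 1413 without the filter, 30 with doublets left out, 200 and 502 with the stricter and looser gates and 2914 without HLU replicate 1. In granulocyte progenitors 47 passed, against 142 with DESeq2, 466 without the filter, 18 with total UMIs, 27 with doublets left out, 179 with the block, and 79, 30, 3120 and 240 without each library. In T and NK cells 13 passed, against 95 without the filter, 23 with the block, 24 without Ctrl replicate 1, and 231 and 56 without each HLU library. Over all barcodes 3568 passed, against 848, 1136, 7726 and 6043 without each library. For the difference in HLU effect 1 passed, against 111 with DESeq2, 317 without the filter, 75 with total UMIs (90.7% of them higher in monocytes), 0 with either other gate, and 1657 and 179 without each HLU library. Total UMIs moved the median of all genes from 0.04 to -0.18 in mature neutrophils and from 0.06 to 0.29 in granulocyte progenitors.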
